A study of Rana pirica with 14 samples.

Results

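Most of the genes described here act in mitosis, at the spindle, the centrosome, the kinetochore or the chromosomes. The array carried 100 probe sets for the whole group among its 15611. Of the 100, 11 belong to genes whose main roles lie outside the spindle. A probe set was a member if its only annotated symbol, read without the suffix .L or .S, was one of a fixed set of names, such as tpx2, dlgap5, the cetn and kif families, the aurora and polo kinases, the bub, mad and cenp genes, the A and B cyclins, cdk1, cdc20, and the smc and ncap genes. The members covered 65 of the 6505 genes that the annotation names alone for a probe set. The rule reads only the names, but it was set with earlier results of these data known, and tpx2, dlgap5 and cetn3 are genes that the study had picked on these arrays. The suffixes name the copies of a gene on the long (.L, 54 members) and the short (.S, 45 members) chromosome of a Xenopus laevis pair, and 1 member, ckap5-a, has neither.

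Labelled RNA from the tails of Rana pirica tadpoles was hybridized to an array designed for Xenopus laevis. Whether a member reads the transcript of the same gene in Rana pirica was not tested. Tadpoles without hind limbs were kept without a predator (Cont, 2 arrays), with dragonfly larvae for 8 days (Drago, 3 arrays), with larval salamanders for 8 days (Salam, 3 arrays), or with either predator for 4 days and then without it for 4 days (−Drago and −Salam, 3 arrays each). All tails were taken at the end of day 8. The study states that dragonfly larvae were caged and harmed no tadpoles, while salamanders bit some tadpoles and killed a few. Caging and injury therefore cannot be told apart from the kind of predator in comparisons between the predators. Arrays of 1 treatment carry the label of biological replicates, whereas the methods state that tails of all its tadpoles were combined before extraction. The p-values therefore cover the spread from array to array, and this spread may be technical. No strain, age or sex is given in the labels.

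A dividing cell enters mitosis when CDK1 is activated by cyclins of the A and B types. The centrosomes, with centrins in their centrioles, then organize microtubules into a spindle with the help of the aurora A kinase, its activator TPX2 and kinesin motors. Microtubules attach to the kinetochores, a checkpoint holds back CDC20 until every chromosome is attached, cohesin is cut, and the central spindle directs the division of the cell. In whole tissue such transcripts come mostly from the dividing cells, so that fewer dividing cells and less transcript per cell cannot be told apart in these tail samples.

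The values are log2 signals, centred for each probe set on its median of the 14 arrays. A value of 0 is therefore the middle of that probe set, a difference of 1 is a 2 fold difference, and levels cannot be compared between genes. For the same reason the presence of muscle, epidermis or other tail cell types could not be checked from the level of their markers. The medians of the 14 arrays lay between -0.00494 and 0.00677. The probe sets of the added Dap control transcript, a bacterial RNA added before labelling, parted the arrays into 6 with a mean of 3.0 to 4.17 (Cont replicate 1, Drago and Salam replicates 1 and 2, −Salam replicate 1) and 8 with -2.41 to -0.613. All −Drago arrays were among the 8.

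No member passed an adjusted p of 0.05 in any comparison. limma was fitted to the 15491 probe sets that are not added controls, and in its F test over the 5 groups the smallest adjusted p of a member was 0.591. At an unadjusted p under 0.05 the F test took 10 of 100 members, beside 5.86% of all probe sets tested, and 0% of all probe sets passed after adjustment. Against Cont, 14 members had an unadjusted p under 0.05 in Drago (10 higher and 4 lower, beside 5.65% of all), 7 in Salam (5 higher and 2 lower, beside 5% of all), 5 in −Drago (2 higher and 3 lower, beside 4.94% of all) and 9 in −Salam (7 higher and 2 lower, beside 5.69% of all). The smallest adjusted p-values of members in these comparisons were 0.733, 0.728, 0.953 and 0.617. The count in Drago includes probe sets of tpx2, dlgap5 and cetn3 that the study had picked on these same arrays. The ordinary tests without moderation also gave 0 members after adjustment. The precision was low, with a median SE of 0.845 for the difference of a member from Cont, near the 0.860 of all probe sets, so the missing calls do not show that the members stayed the same.

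The members lay around 0 in all comparisons with Cont except −Salam. Their median difference was -0.05 in Drago (49 of 100 above 0), -0.06 in Salam (49 of 100) and 0.000772 in −Drago (50 of 100), where the medians of all probe sets were -0.01, -0.02 and -0.00419. In −Salam the median was 0.26 and 61 of 100 members were above 0, beside a median of -0.01 and 49.4% of all probe sets above 0. Without Cont replicate 1 the median of the members in −Salam was -0.04. Without any Cont array in the comparison, the median for −Drago minus −Salam was -0.15 (58 of 100 below 0). For Salam minus −Salam it was -0.31 (63 of 100 below 0). The medians of all probe sets were -0.00548 and -0.00599, with 50.3% and 50.4% below 0. Both comparisons use the −Salam arrays that gave the 0.26, so they are not independent of it. The medians of the members on single arrays were -0.13 and 0.05 in Cont and 0.04, 0.16 and 0.11 in −Salam, so the groups overlapped.

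**Figure D1:**
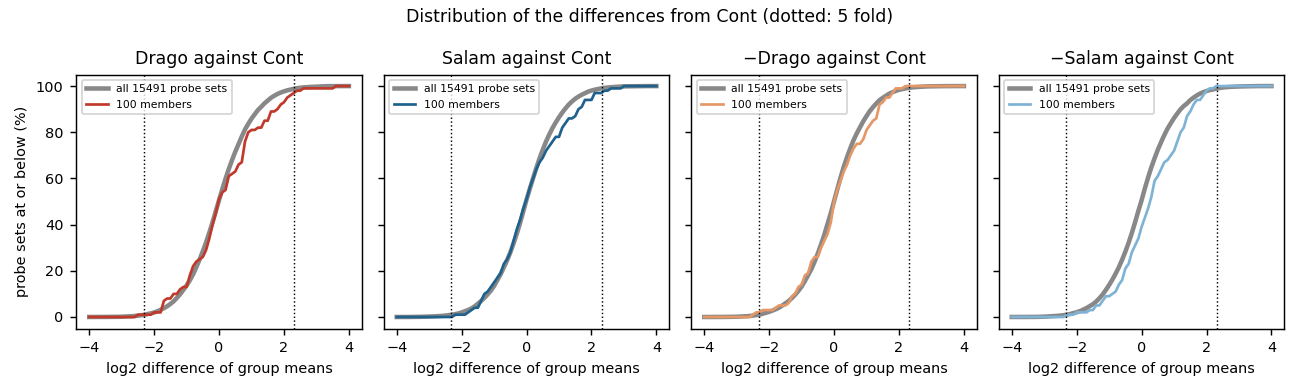
Cumulative share of probe sets (vertical axis, %) at or below a given log2 difference of group means from Cont (horizontal axis), for the 100 members (coloured) and all 15491 probe sets tested (grey), with dotted lines at a 5 fold difference. The curves lie close together in −Drago, and in −Salam the members lie to the right, with a median of 0.26.

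The study screened for differences over 5 fold between group means, which is 2.32 on the log2 scale. In Drago 3 members were over 5 fold higher than Cont and 1 was over 5 fold lower, beside 1.12% and 0.917% of all probe sets. The study lists tpx2 and cetn3, which are among these 3, from the same screen of these arrays. The counts in Drago and in Salam apply the study's cut to the same arrays, so neither is independent of that screen. In Salam 3 were higher and 0 lower (0.942% and 0.988% of all). In −Drago 0 were higher and 2 lower (0.697% and 0.981%), and in −Salam 0 were higher and 1 lower (1.03% and 0.988%). These were 7 probe sets in all, for tpx2.L, cetn3.L, smc3.L, cdc20.L, cenpm.L, cdk1.S and kif3a.L. When the probe sets of a gene were averaged first, 1 gene was over 5 fold in Drago, 0 in Salam and 1 in −Drago. The count in Drago was higher without Cont replicate 1. That setting leaves 1 Cont array, and the share of all probe sets was not counted for it. Members whose arrays did not overlap with those of Cont numbered 16 higher and 10 lower in Drago (9.95% and 9.84% of all), 16 and 10 in Salam (10.2% and 9.97%), 15 and 14 in −Drago (9.98% and 10.5%), and 16 and 7 in −Salam (10.1% and 9.85%).

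**Figure D2:**
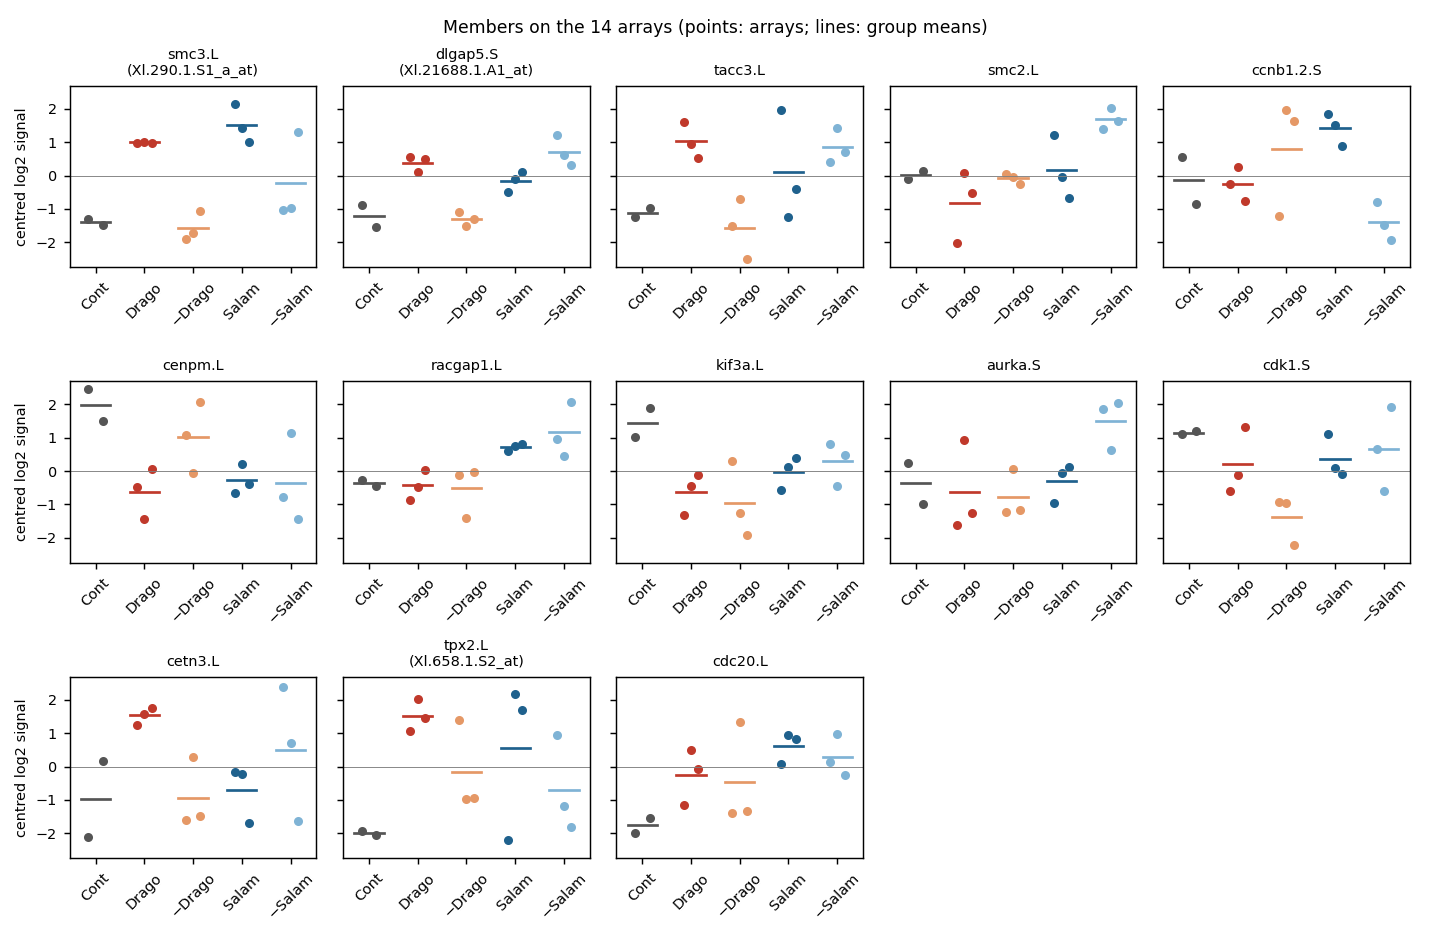
Centred log2 signal (vertical axis) of the 10 members with the smallest p in the F test and of the other members over 5 fold from Cont, on each of the 14 arrays by group; points are arrays and lines are group means. For smc3.L the Drago arrays lie between 0.98 and 1.01, above both Cont arrays at -1.30 and -1.49.

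Among the cyclins and CDK1, which start mitosis, 14 probe sets of 7 genes were measured and none was over 5 fold higher in any group. The value of cdk1.S was 1.10 and 1.2 on the Cont arrays, -0.60, -0.12 and 1.32 in Drago, 1.12, 0.08 and -0.08 in Salam, -0.92, -0.96 and -2.21 in −Drago, and 0.65, -0.59 and 1.93 in −Salam. The 3 −Drago arrays were below every other array of the series. The difference of −Drago from Cont was -2.51 ± 0.80 (SE; limma adjusted p = 0.953). The probe set of cdk1.L differed by -1.13 ± 0.81 in the same comparison, and the pair of cdk1 probe sets had a correlation of 0.548 over the 14 arrays.

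Cyclin B of the ccnb1.2 locus, a partner of CDK1, gave the member with the smallest p between Salam and −Salam. The probe set of ccnb1.2.S read 0.56 and -0.86 in Cont, -0.25, 0.25 and -0.76 in Drago, 1.85, 1.51 and 0.89 in Salam, -1.21, 1.96 and 1.63 in −Drago, and -0.79, -1.50 and -1.93 in −Salam. The Salam and −Salam arrays did not overlap, and they differed by 2.82 ± 0.77 (limma adjusted p = 0.688). The ccnb1.2.L probe set was at 1.28 against Cont in Salam, near the 1.57 of ccnb1.2.S, but at 2.08 in Drago, where ccnb1.2.S was at -0.10. Of the A cyclins, which act with CDKs in S phase and early mitosis, ccna1.S was lower in Drago than in Salam (difference -2.0 ± 0.86, adjusted p = 0.865) and ccna2.L differed by -2.14 ± 0.78 between Salam and −Salam (adjusted p = 0.881).

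The mitotic kinases and the chromosome passenger proteins were represented by 11 probe sets of aurka, aurkb, birc5, incenp and plk1, with a median difference from Cont of -0.28 in Drago and 0.07 in Salam, and of -0.42 and -0.19 after removal of the dragonfly and the salamander. The aurora A kinase probe set aurka.S was at 0.25 and -0.98 in Cont, -1.62, 0.94 and -1.25 in Drago, -0.96, -0.05 and 0.13 in Salam, -1.24, 0.05 and -1.16 in −Drago, and 1.88, 0.62 and 2.04 in −Salam. All −Salam arrays lay above those of −Drago, with a difference of -2.29 ± 0.73 for −Drago minus −Salam (adjusted p = 0.803). In that comparison aurka.L differed by 1.48 ± 0.83, in the opposite direction. The correlation of both aurka probe sets was -0.471, the lowest among the members.

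Spindle assembly factors and motors formed the group with most probe sets, 18 of 9 genes, and 5 of them had an unadjusted p under 0.05 and were higher in Drago than in Cont, as were 3% of all probe sets tested. These 5 include the probe sets of tpx2 and dlgap5 that the study had picked on these same arrays, so the count is not independent of that selection. TPX2 activates aurora A and nucleates microtubules near chromosomes, and the study lists it among the genes with large differences in Drago. The probe set tpx2.L (Xl.658.1.S2_at) read -1.94 and -2.06 in Cont, 1.07, 2.03 and 1.47 in Drago, -2.20, 2.18 and 1.69 in Salam, 1.41, -0.97 and -0.95 in −Drago, and 0.95, -1.2 and -1.82 in −Salam. Every Drago array was above both Cont arrays, while 1 Salam array was below them. The difference was 3.53 ± 1.18 in Drago (adjusted p = 0.808), and 2.56 ± 1.18 in Salam (adjusted p = 0.980).

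The other tpx2 probe sets did not show differences of that size. For tpx2.L (Xl.658.1.S1_at) the Cont arrays were at -2.12 and 0.33, the Drago arrays at -0.03, 0.39 and -0.56, and the difference was 0.82 ± 0.77, which without Cont replicate 1 became -0.40. For tpx2.S the difference was -0.48 ± 0.74 in Drago and -1.15 ± 0.74 in Salam. The correlation between the tpx2.L probe sets was 0.439.

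The array has a pair of probe sets for dlgap5.S, the spindle protein also known as HURP. Xl.21688.1.A1_at is among the probe sets that the study picked on these arrays for differing between the groups, so its pattern is not independent evidence. The study listed it without a gene name and did not keep it in its final list. It read -0.89 and -1.53 in Cont, 0.55, 0.12 and 0.49 in Drago, -0.49, -0.10 and 0.10 in Salam, -1.10, -1.51 and -1.31 in −Drago, and 1.21, 0.61 and 0.32 in −Salam. The Drago, Salam and −Salam arrays were all above those of Cont and −Drago. It was at 1.60 ± 0.54 in Drago (adjusted p = 0.808) and 1.92 ± 0.54 in −Salam (adjusted p = 0.617), and −Drago minus −Salam was -2.02 ± 0.49 (adjusted p = 0.605). The other probe set, Xl.22352.1.A1_at, was at 1.04 and 2.55 in Cont and at -0.31, -0.32 and 0.76 in Drago, a difference of -1.75 ± 0.85, and in −Drago at -2.27 ± 0.85 (adjusted p = 0.959). The correlation of both over the 14 arrays was 0.0105.

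TACC3 stabilizes spindle microtubules together with the ckap5 protein, and both of its probe sets lay above Cont in Drago. The values of tacc3.L were -1.25 and -0.97 in Cont, 1.60, 0.96 and 0.52 in Drago, 1.98, -1.23 and -0.42 in Salam, -1.52, -0.71 and -2.51 in −Drago, and 0.42, 1.41 and 0.70 in −Salam. The Drago arrays lay above those of Cont and −Drago without overlap. Against Cont, Drago was at 2.13 ± 0.85 for tacc3.L (adjusted p = 0.837) and 1.98 ± 0.69 for tacc3.S (adjusted p = 0.808). Their profiles differed elsewhere, as −Drago minus −Salam was -2.42 ± 0.76 for tacc3.L and 0.03 ± 0.62 for tacc3.S, and their correlation was 0.326. Drago minus Salam was 1.80 ± 0.62 for tacc3.S (adjusted p = 0.779), the smallest p of a member in that comparison.

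Centrins are calcium-binding proteins of the centriole, and plk4 is the kinase that starts centriole duplication. The 6 probe sets of these 4 genes had a median difference from Cont of 1.15 in Drago and 0.29 in Salam, with 5 and 4 of 6 above 0. It was 0.18 in −Drago and 1.13 in −Salam, with 5 of 6 above 0 in both. All these differences share the 2 Cont arrays. The 6 include cetn3.L, which the study had picked on these same arrays, so the Drago median is not independent of that selection. Of all probe sets, 49.4% were above 0 in Drago and 49.4% in −Salam. The probe set cetn3.L, which the study lists for Drago, read -2.12 and 0.16 in Cont, 1.26, 1.58 and 1.77 in Drago, -0.16, -0.23 and -1.70 in Salam, -1.61, 0.30 and -1.48 in −Drago, and 2.40, 0.71 and -1.64 in −Salam. Its Drago arrays were above all arrays of Cont, Salam and −Drago. The study picked the gene on these arrays as specific to the dragonfly and back at the control level after removal. This separation is therefore not independent evidence. The difference from Cont was 2.51 ± 1.04 in Drago (adjusted p = 0.839), and it ranged from 1.37 to 3.66 when each array was left out in turn, the lowest without Cont replicate 1. For cetn3.S the same difference was 0.73 ± 0.61, and the correlation with cetn3.L was -0.233.

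At the kinetochore, 9 probe sets of 9 genes were measured, and cenpm.L, of a protein of the inner kinetochore, was the only one over 5 fold from Cont. It read 2.45 and 1.49 in Cont, -0.48, -1.42 and 0.06 in Drago, -0.66, 0.23 and -0.40 in Salam, 1.07, -0.06 and 2.08 in −Drago, and -0.78, 1.14 and -1.43 in −Salam. Drago, Salam and −Salam all lay below Cont, while −Drago overlapped with it. The differences were -2.58 ± 0.83 in Drago, -2.25 ± 0.83 in Salam and -2.32 ± 0.83 in −Salam (adjusted p = 0.801, 0.863 and 0.844). These comparisons share the 2 Cont arrays, and cenpm had no other probe set on the array to compare with. The genes ndc80, nuf2 and spc24, which belong to the outer kinetochore complex that binds microtubules, were not over 5 fold in any group.

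Of the checkpoint genes and CDC20, the activator of the ubiquitin ligase that ends metaphase, 8 probe sets of 6 genes were measured. The values of cdc20.L were -1.98 and -1.54 in Cont, -1.16, 0.49 and -0.07 in Drago, 0.07, 0.96 and 0.84 in Salam, -1.38, 1.33 and -1.34 in −Drago, and 0.13, 0.98 and -0.26 in −Salam. Both Cont arrays were below the other 12 arrays. The difference was 2.38 ± 0.82 in Salam (adjusted p = 0.860) and 2.04 ± 0.82 in −Salam (adjusted p = 0.870). For cdc20.S the corresponding differences were 0.01 ± 0.57 and 0.14 ± 0.57.

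Cohesin holds sister chromatids together and condensin compacts chromosomes, and their 14 probe sets had a median difference from Cont of -0.49 in Drago and -0.54 in Salam. The cohesin subunit smc3.L (Xl.290.1.S1_a_at) had the smallest F p of all members, with an unadjusted p of 0.000832. It read -1.30 and -1.49 in Cont, 0.98, 1.01 and 0.99 in Drago, 2.13, 1.43 and 1.0 in Salam, -1.91, -1.74 and -1.06 in −Drago, and -1.04, -0.98 and 1.31 in −Salam. The arrays with a predator until day 8 were above all those of Cont and −Drago. Its difference from Cont was 2.39 ± 0.71 in Drago (adjusted p = 0.733), 2.92 ± 0.71 in Salam (adjusted p = 0.728) and -0.17 ± 0.71 in −Drago, and Drago minus −Drago was 2.56 ± 0.64 (adjusted p = 0.635). The other smc3.L probe set (Xl.290.2.S1_x_at) was at -0.82 ± 0.98 in Drago and -1.76 ± 0.98 in Salam, the opposite direction, and the correlation of both was -0.274.

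The condensin subunit smc2.L was highest in −Salam, with values of 1.39, 2.04 and 1.65, against -0.12 and 0.12 in Cont, -2.04, 0.06 and -0.54 in Drago, 1.22, -0.06 and -0.67 in Salam, and 0.04, -0.04 and -0.27 in −Drago. The −Salam arrays lay above all others. The difference from Cont was 1.69 ± 0.70 in −Salam (adjusted p = 0.870) and -0.84 ± 0.70 in Drago.

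Genes of cytokinesis and the central spindle gave 9 probe sets, all of them above 0 in −Salam, with a median of 0.52 and a range from 0.07 to 2.25. Of all probe sets 49.4% were above 0 there. Above 0 were also 7 of the 9 in Drago, 5 in Salam and 7 in −Drago, with medians of 0.23, 0.64 and 0.51. These differences share the 2 Cont arrays. The centralspindlin subunit racgap1.L was at -0.27 and -0.44 in Cont, -0.85, -0.48 and 0.04 in Drago, 0.62, 0.74 and 0.82 in Salam, -0.11, -1.40 and -0.04 in −Drago, and 0.95, 0.46 and 2.06 in −Salam. Salam and −Salam lay above the other groups without overlap. The difference from Cont was 1.08 ± 0.64 in Salam and 1.52 ± 0.64 in −Salam (adjusted p = 0.985 and 0.870). The racgap1.S probe set was at -0.07 in Salam and had a correlation of 0.081 with racgap1.L. The chromokinesin probe set kif4a.S was at 2.25 ± 0.88 in −Salam (adjusted p = 0.870).

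The rule also took 11 probe sets of genes whose main roles lie outside the spindle, such as transport and ciliary kinesins, plk2, plk3, ckap4 and mad2l2. Among these, kif3a.L, a subunit of the kinesin that carries cargo along cilia, was at 1.01 and 1.90 in Cont, -1.31, -0.44 and -0.12 in Drago, -0.57, 0.12 and 0.39 in Salam, 0.31, -1.27 and -1.93 in −Drago, and 0.82, -0.45 and 0.49 in −Salam. Both Cont arrays were above all others. The difference was -2.42 ± 0.73 in −Drago (adjusted p = 0.953) and -2.08 ± 0.73 in Drago (adjusted p = 0.808).

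**Figure D3:**
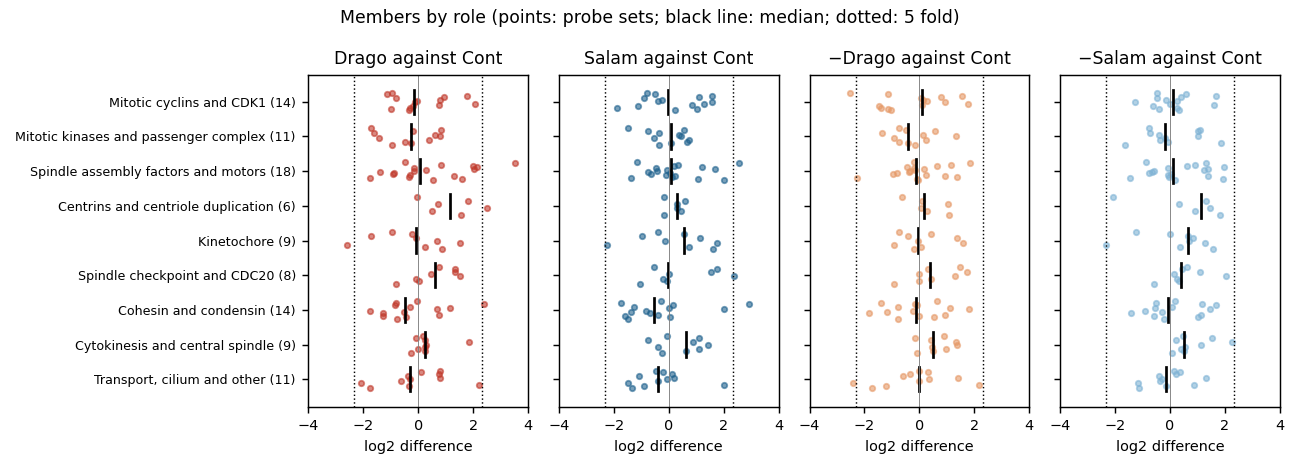
Log2 difference from Cont (horizontal axis) of the members, grouped by role with the number of probe sets in brackets, in the 4 comparisons; points are probe sets, black lines are medians and dotted lines mark 5 fold. The centrins and centriole genes have a median of 1.15 in Drago and 1.13 in −Salam, and every role group spans 0 in Drago. The centrins include cetn3.L, which the study had picked on these arrays. All comparisons share the Cont arrays.

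Between the predators, and between continued and ended exposure, the members gave no call either. Drago and Salam differed at an unadjusted p under 0.05 in 4 members (2 higher and 2 lower in Drago), where 5.71% of all probe sets did and 0.00646% (1 probe set, no member) passed after adjustment. −Drago and −Salam differed in 9 members (2 higher and 7 lower in −Drago, beside 5.4% of all). Drago and −Drago differed in 9 (7 higher and 2 lower in Drago, beside 5.74% of all). This count was 5 when the Dap level of each array was added as a term, a setting for which the share of all probe sets was not counted. Salam and −Salam differed in 8 (3 higher and 5 lower in Salam, beside 5.49% of all). The median over the members for Salam minus −Salam was -0.15 without Salam replicate 1, and that for −Drago minus −Salam was -0.28 without −Drago replicate 1. The test of whether the effect of removal differed between predators had 5 members at an unadjusted p under 0.05 (5.55% of all), and its smallest adjusted p of a member was 0.583, for dlgap5.S (Xl.21688.1.A1_at).

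For 31 of the 65 genes there was more than 1 probe set, 66 members in all, and these could be compared within a gene. Over the 39 pairs the median correlation across the 14 arrays was 0.0448, from -0.471 to 0.576, and 3 pairs were above 0.5, those of ccnb3, cdk1 and kif15. In Drago the difference from Cont had the same sign in 18 of 39 pairs, and in Salam in 19. Among the 15 pairs with the same symbol, 5 had the same sign in Drago and 3 in Salam. Over the whole array, 4184 pairs of 2012 genes had a median correlation of -0.000921, 3.8% were above 0.5, and 49.95% had the same sign in Drago. Of the pairs with the same symbol over the whole array, 49.96% had the same sign in Drago and 50.22% in Salam. The pairs share arrays and some share a probe set, and these correlations are descriptions with no test.

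Most pairs of the added control transcripts had higher correlations on the same arrays. Over their 96 pairs of probe sets the median was 0.774, and 82 were above 0.5. It was 0.906 for Dap, but 0.504 for Lys (from -0.0943 to 0.774) and 0.226 for Trp (from -0.0647 to 0.246). The pairs also include the controls BioB, BioC, BioD and cre. Values ran from -4.46 to 6.16 for Dap, and from -0.582 to 0.531 for BioB, whose median correlation was 0.719. The part of such swings between arrays in these correlations was not tested. Over all probe sets tested, arrays of the same group had correlations between -0.0187 and 0.00998, and arrays of different groups between -0.027 and 0.0127. These are correlations of centred values, from which the signal level that the arrays share has been removed. How much of the signal came from Rana pirica transcripts was not tested, and this limits the reading of every value given for the members. The median residual SD of the members was 0.960, beside 0.984 for all probe sets, and ranged from 0.306 to 1.83.

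**Figure D4:**
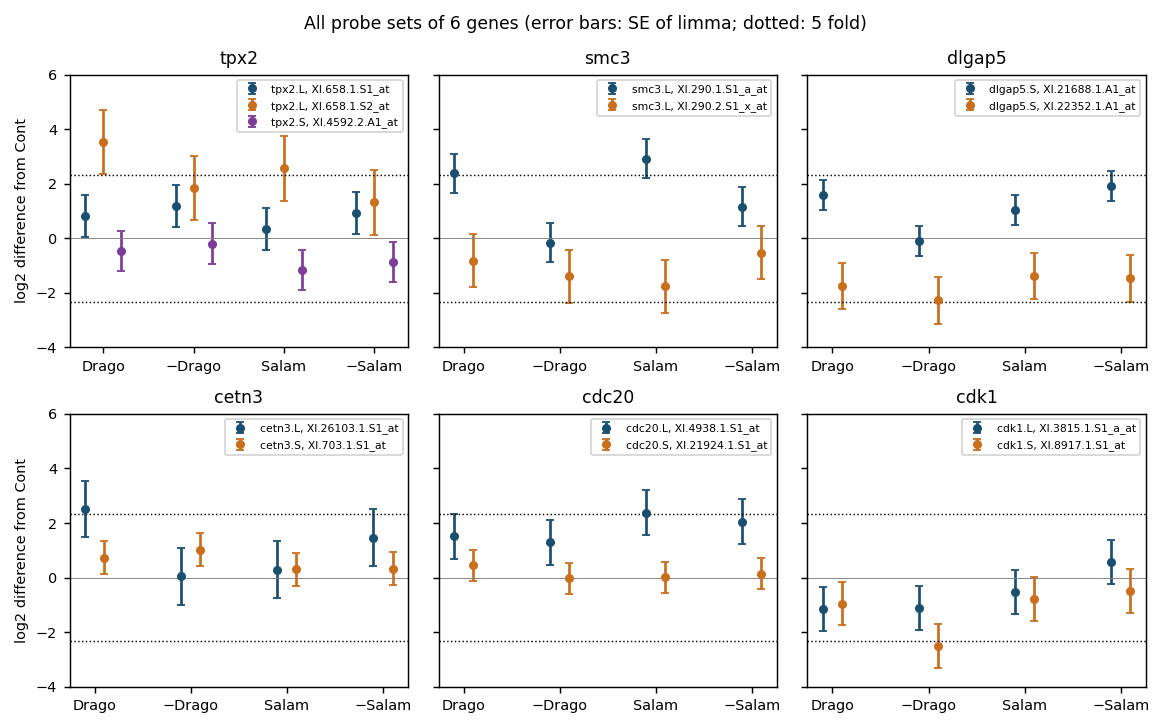
Log2 difference from Cont (vertical axis) in the 4 groups for all probe sets of 6 genes; bars are the SE of limma and dotted lines mark 5 fold. The probe sets of smc3.L lie at 2.92 and -1.76 in Salam, while those of cdk1 lie on the same side of 0 in Drago, −Drago and Salam.

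**Figure D5:**
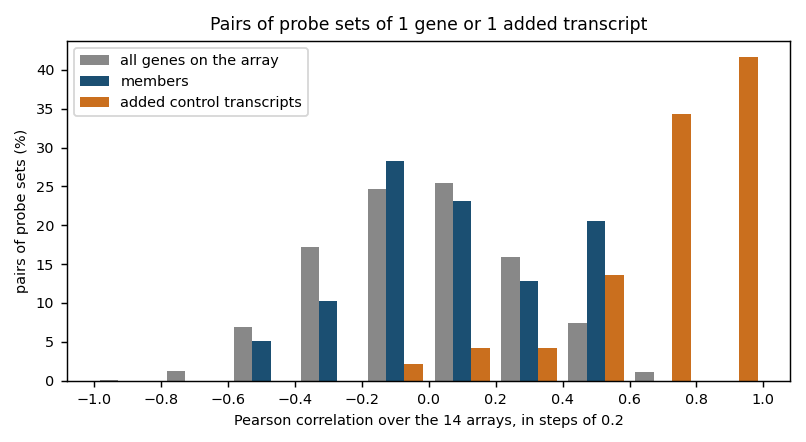
Share of pairs of probe sets (vertical axis, %) by their correlation over the 14 arrays (horizontal axis, steps of 0.2), for members of the same gene, all genes and the added control transcripts. The median is 0.0448 for the members and 0.774 for the added controls.

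Genes that work with the members were also compared with Cont, as lists, and 0 probe sets of any list passed after adjustment. For the anaphase-promoting ubiquitin ligase (17 probe sets) 0 had an unadjusted p under 0.05 in any of the 4 groups, and the medians lay between -0.11 in Salam and 0.24 in Drago. The other lists are given for Drago and Salam only, where 5.65% and 5% of all probe sets had an unadjusted p under 0.05. Of the 15491 probe sets tested, 465 were higher and 411 lower at that p in Drago, and 405 and 370 in Salam. Of the 52 probe sets for replication licensing and the replication fork, 1 was higher and 4 lower at that p in Drago and 1 and 4 in Salam, with medians of -0.06 and -0.25. The tubulins and the gamma-tubulin ring (26) had 0 in Drago and 4 higher in Salam, with medians of 0.15 and -0.06. The G1/S cyclins, CDKs and their regulators (34) had 1 higher and 1 lower in both Drago and Salam, with medians of 0.19 and -0.04. Other centrosome and centriole genes (24) had 0 in Drago and 1 lower in Salam, and the partners of cohesin (21) had 1 lower in Drago and 1 higher in Salam.

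Markers of the tissues of the tail did not pass a test either. In Drago the median differences from Cont were -0.11 for muscle (14 probe sets), 0.22 for epidermis (8), -0.66 for erythrocytes (6), -0.18 for immune cells (8), 0.35 for neural cells (12) and 0.85 for notochord and cartilage (5). In −Salam, where the members had a median of 0.26, they were 0.17, -0.96, -0.57, -0.26, 0.54 and 0.32. The part of tissue composition in the values of the members was not tested.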

How the data were processed

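The authors deposited 1 table of log2 values for 15611 probe sets and 14 arrays. Per the submitters' processing notes and the methods, signals were computed with GCOS and MAS5 and set against the median of all samples, so the deposited log2 values have a median of 0 for each probe set and the signal level is lost. No filter on low signals was therefore possible, and the number of arrays limits the precision. The control array that the study left out was not analysed here. Symbols came from the platform annotation, which gives 1 symbol for 9304 of the 15491 probe sets tested, several for 195 and none for 5992.

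Tests did not include the 120 probe sets of added controls. A model with a mean for each group was fitted to the 14 arrays in limma 3.58.1 (R 4.3.3; 9 residual and 5.53 prior degrees of freedom), with Benjamini-Hochberg adjustment over all probe sets tested, separately for the F test, 8 comparisons and the interaction. Errors are SE of that fit. The members, lists and alternatives were chosen with earlier results of these data known. Named members are those of genes that the study names or lists by probe set, and the 10 with the smallest F p. Also named are the 3 with the smallest p in each comparison, those over 5 fold from Cont, and other probe sets of their genes. Groups of other roles are given as counts. The pipeline was run on simulated data with independent noise for each probe set and array. The share of changes recovered there is not given here, so that run is no evidence of power on these arrays. Alternatives were quantile normalization, centring of each array, the replicate block, a fit of only the compared groups, ordinary tests, the Dap level as a term, ratios of linear means, 1 value per gene, only the mitotic members, and leaving out each array.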

Additional observations from a re-analysis of the deposited data

Results flagged for a closer look

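The added Trp control transcript, which no comparison uses, had a mean of 0.631 over the 3 Drago arrays, above the higher Cont array at 0.412, and the Drago arrays were at 1.51, -0.0897 and 0.469.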

How the results depend on the processing

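Under every alternative run, 0 members had an adjusted p under 0.05, and 678 of 680 values of the 34 named differences kept their sign. The exceptions were tpx2.L (Xl.658.1.S1_at) in Drago, which ran from -0.398 without Cont replicate 1 to 2.05 without Cont replicate 2, and tpx2.S in Drago, at 0.057 without Drago replicate 3. Leaving out an array of a group outside a comparison, the ordinary test and the fit of only the compared groups cannot change a difference. Most of the 34 were also chosen for a small p or a difference over 5 fold. The count of kept signs is therefore no measure of robustness. The ordinary test gave 9 members at an unadjusted p under 0.05 in Drago and 5 between Drago and −Drago, and 1 probe set after adjustment both between −Drago and −Salam and between Drago and −Drago. A fit of only the compared groups gave 8 members at an unadjusted p under 0.05 in −Drago and 0 probe sets after adjustment between Drago and Salam. The Dap level as a term gave 5 members at an unadjusted p under 0.05 between Drago and −Drago. Of 26 pairs of arrays with the same number, 0 correlated above 0.1. Arrays of the same group did not reach 0.1 over all probe sets either, so this cannot decide whether the numbers pair the arrays. No array numbered 3 was among the 6 with a high Dap level. With the replicate block 0 probe sets passed between Drago and Salam instead of 1. Averaging the probe sets of a gene left 1 gene over 5 fold in Drago, 0 in Salam and 1 in −Drago, and moved the median of −Drago to 0.0916. Ratios of linear means left 1 member over 5 fold in −Drago and 0 in −Salam, and quantile normalization left 0 in −Salam. Leaving out each array gave 6 to 11 members at an unadjusted p under 0.05 in the F test, 8 to 15 in Drago, 3 to 10 in −Drago, 5 to 9 between Drago and −Drago, and 5 to 11 for the interaction, and 0 to 1 probe sets after adjustment between Drago and Salam. It gave 4 to 11 members over 5 fold in Drago, 3 to 7 in Salam, 1 to 9 in −Drago and 1 to 6 in −Salam, in each the highest without Cont replicate 1, which in Salam was tied with Cont replicate 2. It gave a median of -0.0763 to 0.182 in −Drago and of -0.0431 (without Cont replicate 1) to 0.312 in −Salam. Medians between the exposed groups were added to the alternatives after the data were seen, Salam minus −Salam ran from -0.326 to -0.155, and −Drago minus −Salam from -0.282 to -0.122. With a Cont array left out, the other is assumed to vary like the other groups. The cause of these shifts was not tested.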
